A study of Mus musculus with 8 samples.

Results

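*Phox2a*, *Dbh*, *Slc6a2*, *Pnmt* and *Tbx20* mark noradrenergic neurons and visceral neurons of the hindbrain, and their RNA was measured in the whole brains of newborn mice. The genes were chosen by symbol, with earlier results of these data known, as the entries whose Ensembl mouse gene identifier maps to these names. They are 5 of the 49585 genes in the deposited counts. Dams of the C57BL/6J strain, here B, drank water with 0 ppm or 50 ppm CdCl2 before mating with CAST/EiJ males, here C, and during pregnancy. The 8 brains came from female B × C pups on postnatal day 1, 4 at each dose and each from a different litter, and the labels name no genotype besides the cross. Poly(A) RNA of each brain was sequenced as 1 library, and 22916434 to 30708087 reads per library were counted on genes. RNA was extracted from a portion of the tissue of each pulverized whole brain. The number of cells of a type, the RNA per cell and the brain regions present in that portion therefore cannot be told apart.

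Noradrenaline is made from tyrosine in a short chain of enzymes. Tyrosine hydroxylase (*Th*) and aromatic amino acid decarboxylase (*Ddc*) make dopamine, dopamine beta-hydroxylase (*Dbh*) turns dopamine into noradrenaline inside vesicles, and phenylethanolamine N-methyltransferase (*Pnmt*) turns noradrenaline into adrenaline in a few cell groups. In the brain these steps take place in small clusters of neurons in the pons and medulla, of which the locus coeruleus is the best known, and the paired-like homeodomain protein Phox2a takes part in specifying these cells. The T-box factor Tbx20 is expressed in the branchial and visceral motor neurons of the hindbrain.

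The libraries differed widely in the RNA of Hox genes. For 18 Hox genes, which are transcribed in the hindbrain and spinal cord, the summed CPM (reads scaled to equal library sizes after normalization) was 0.0341, 0.818, 19.3 and 33.7 in the brains of 0 ppm replicates 1 to 4. It was 134, 47.8, 30.5 and 42.2 in 50 ppm replicates 1 to 4. The control libraries of replicates 1 and 2 were therefore close to 0, and each exposed library except replicate 3 lay above all control libraries. *Hoxb5* was the most abundant gene of the list with a mean of 12.7 CPM, and 4 of the 18 genes, *Hoxa3*, *Hoxa4*, *Hoxa5* and *Hoxd4*, were listed at 0 in all libraries. The summed CPM of 6 forebrain genes was 570, 550, 349 and 425 at 0 ppm and 383, 419, 473 and 430 at 50 ppm, so the same 2 control libraries also had the highest forebrain sums. *Neurod6*, a transcription factor gene of cortical neurons, was the most abundant of these with 224 CPM. *Six3* and *Emx2* did not have this order, with *Six3* at 19.5, 21.8, 31.1 and 27.1 CPM and *Emx2* at 10.8, 12.6, 12.1 and 12.8 CPM in the controls. None of the 6 was at 0. General neuron genes varied less, with a summed CPM of 3740 to 4300 for 5 genes, led by *Map2* at 1850 CPM. *Tubb3*, which neurons express, was nevertheless listed at 0 in all 8 libraries, so a listed 0 in these counts does not show that a gene was silent.

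All 6 genes of a noradrenergic neuron list (*Dbh*, *Slc6a2*, *Phox2a*, *Th*, *Ddc* and *Slc18a2*) had reads in every library. Their summed CPM was 32.0, 33.3, 58.9 and 43.5 at 0 ppm and 29.1, 52.5, 61.6 and 78.7 at 50 ppm, and the doses overlapped. The most abundant was *Slc18a2*, the vesicle transporter that all monoamine neurons share, with a mean of 18.3 CPM.

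*Phox2a* (ENSMUSG00000007946) occupies 101818313 to 101822726 on the plus strand of chromosome 7 (GRCm38), and 4.7% of its exon length overlaps *Inppl1* on the opposite strand. It was the member with the fewest reads, with 1, 5, 14 and 8 in 0 ppm replicates 1 to 4 and 15, 16, 12 and 27 in 50 ppm replicates 1 to 4. These reads correspond to 0.0341, 0.186, 0.457 and 0.310 CPM at 0 ppm against 0.526, 0.562, 0.428 and 1.19 CPM at 50 ppm. Replicate 1 of the controls was the lowest library and replicate 4 of the exposed brains the highest, and the doses met only where 50 ppm replicate 3 lay just under 0 ppm replicate 3. The means were 0.247 ± 0.180 CPM (SD, n = 4) and 0.677 ± 0.347 CPM (SD, n = 4). The log2 fold change of 50 ppm against 0 ppm was 1.41 (standard error, SE, 0.50), with an unadjusted p of 0.0119 and an adjusted p of 0.999 from edgeR (quasi-likelihood test, Benjamini-Hochberg adjustment over all genes). A count of 0 allows up to 3 reads, or 0.098 to 0.132 CPM, so *Phox2a* in 0 ppm replicate 1 was within what a count of 0 allows. Such limits cover counting error only. With both control libraries whose Hox sum was near 0 left out, the log2 fold change of *Phox2a* was 0.76 (SE 0.48, unadjusted p = 0.122 from edgeR). This alternative was chosen after the values were seen. The part of the Hox-expressing tissue in the difference was not tested.

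*Dbh* (ENSMUSG00000000889, chromosome 2, 27165233 to 27183200, plus strand), the enzyme that defines noradrenergic and adrenergic cells, had 19, 51, 68 and 34 reads at 0 ppm and 32, 77, 137 and 167 at 50 ppm. The corresponding levels were 0.649, 1.90, 2.22 and 1.32 CPM in the controls and 1.12, 2.70, 4.89 and 7.37 CPM in the exposed brains. Replicates 3 and 4 at 50 ppm were the highest libraries, replicate 2 lay just above the controls, and replicate 1 lay inside their range. The means were 1.52 ± 0.691 CPM (SD, n = 4) and 4.02 ± 2.71 CPM (SD, n = 4), and the log2 fold change was 1.38 (SE 0.42). The unadjusted p was 0.00423 and the adjusted p 0.921 from edgeR. Without the filter on low counts the adjusted p of *Dbh* was 0.043, and over the 15 alternatives it lay between 0.043 and 1. With 50 ppm replicate 4 left out the log2 fold change was 0.93, and without both control libraries with Hox sums near 0 it was 1.14 (SE 0.43).

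Promoters of *Phox2a*, *Dbh* and *Tbx20* were in the set of RefSeq windows for GRCm38.p6 used here, from 250 bases before to 50 bases after the start. That set held no entry for *Slc6a2* and *Pnmt*, so 3 of 5 members matched. Each window was searched on both strands for ATTA, the core that homeodomain proteins such as Phox2a bind, for TGACG, a part of the cAMP response element, and for CANNTG, the E-box. The window of *Dbh* held 3 matches of ATTA, 1 of TGACG and 2 of CANNTG. Of all 32851 windows, 58.0% held ATTA at least once, and 6584 windows held it 3 or more times. The stretches below show the ATTA matches and the TGACG match of *Dbh* in capitals, because *Dbh* is a known target of Phox2a. A match is a description of the letters and not of binding.
*Dbh*, chr2:27165344-27165369: tgtgtcATTAgtgccaATTAggggag
*Dbh*, chr2:27165436-27165461: aatgtgATTAggtgcagcctggccca
*Dbh*, chr2:27165279-27165304: aacaggCGTCAgagatttgttggagg
They are printed on the plus strand, and the TGACG match of the third, which lies on the minus strand, therefore appears as its reverse complement. They start 163, 71 and 228 bases before the RefSeq start, and in the GENCODE M21 annotation, which starts the gene farther upstream, they lie in the 5′ UTR of the first exon. The window of *Phox2a*, with 71.3% G and C, held 0 matches of ATTA, 0 of TGACG and 1 of CANNTG.

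*Slc6a2* (ENSMUSG00000055368, chromosome 8, 92960079 to 93001667, plus strand) encodes the transporter that takes noradrenaline back into the neuron. It had the most reads of the members, with 50, 216, 161 and 119 reads in the control brains, compared with 74, 143, 558 and 608 in the exposed brains. These are 1.71, 8.04, 5.26 and 4.61 CPM at 0 ppm against 2.60, 5.02, 19.9 and 26.8 CPM at 50 ppm. Replicates 3 and 4 at 50 ppm were far above every other library, while replicates 1 and 2 at 50 ppm lay within the range of the controls. The means were 4.90 ± 2.60 CPM (SD, n = 4) and 13.6 ± 11.7 CPM (SD, n = 4), and the log2 fold change was 1.46 (SE 0.52). The unadjusted p was 0.0110 and the adjusted p 0.999 from edgeR. The unadjusted p of *Slc6a2* was 0.0691 with DESeq2, 0.101 with limma-voom, 0.134 with edgeR's robust fit and 0.119 in edgeR without 50 ppm replicate 4. Without 50 ppm replicate 4 the log2 fold change was 0.91, and without 50 ppm replicate 1 it was 1.82. Without both control libraries with Hox sums near 0 it was 1.44 (SE 0.51).

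Sympathetic neurons and chromaffin cells also express *Dbh*. The summed CPM of 7 genes of a list for these cells was 39.8, 43.3, 45.4 and 44.1 at 0 ppm and 51.5, 61.2, 52.3 and 49.3 at 50 ppm, so all 4 exposed brains lay above all control brains. *Prph* was the gene of the list with the largest difference in mean, 6.11 CPM at 0 ppm against 13.7 CPM at 50 ppm. For *Prph* all exposed brains lay above all control brains, as they did for 1.19% of all genes. The doses overlapped for each other gene of the list with reads, *Npy*, *Chrna3*, *Chrnb4*, *Slc18a1* and the member *Pnmt*. *Npy* was the most abundant gene with 23.4 CPM, *Hand2* was listed at 0, and of the 6 tested genes 4 had a positive log2 fold change, with a median of 0.13, while *Slc18a1* had -0.51 (SE 0.37) and *Chrna3* -0.11 (SE 0.16). The part of these cells in the values of *Slc6a2* and *Dbh* was not tested.

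*Pnmt* (ENSMUSG00000038216, chromosome 11, 98386450 to 98388181, plus strand), the enzyme of adrenaline synthesis, had 7, 14, 17 and 14 reads in the controls and 8, 19, 10 and 14 in the exposed brains. Its levels were 0.239, 0.521, 0.555 and 0.542 CPM at 0 ppm against 0.281, 0.667, 0.357 and 0.618 CPM at 50 ppm. Neither dose stood above the other, and replicate 1 was the lowest library at each dose. The means were 0.464 ± 0.151 CPM (SD, n = 4) and 0.481 ± 0.190 CPM (SD, n = 4). The log2 fold change was 0.04 (SE 0.39, adjusted p = 0.999 from edgeR), and over the 15 alternatives it lay between -0.21 and 0.24.

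**Figure D1:**
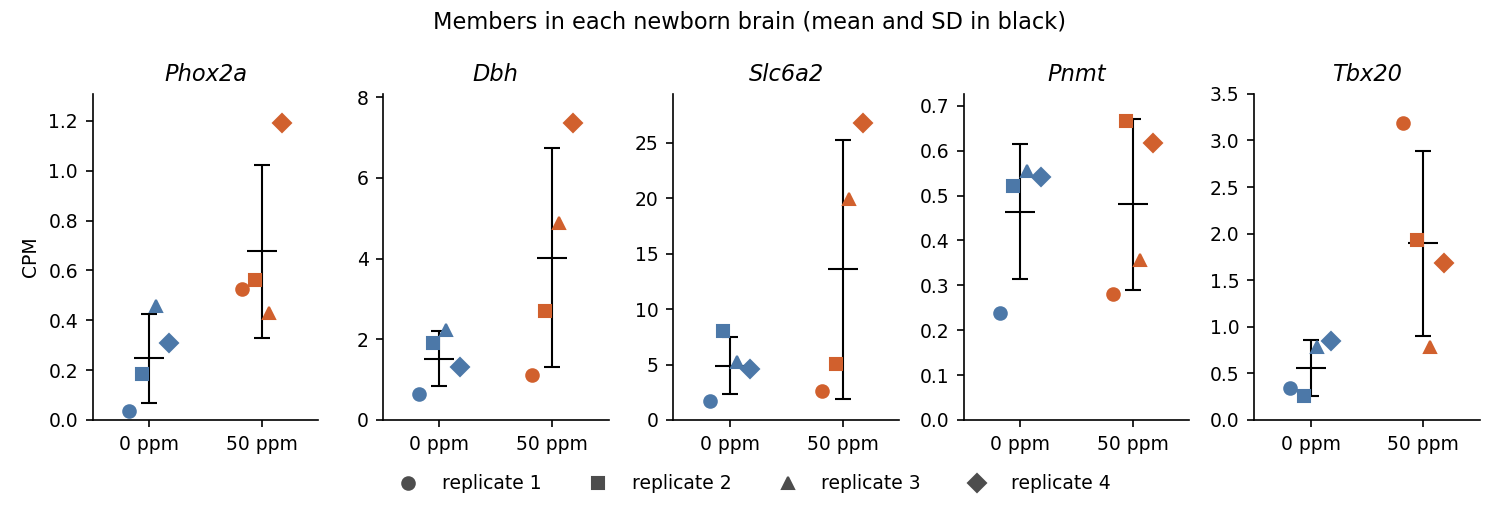
CPM of the 5 members in each newborn brain, by dose on the x axis, with a symbol for each replicate and the mean and SD of 4 brains in black. Replicates 3 and 4 at 50 ppm are highest for *Slc6a2* (19.9 and 26.8 CPM) and *Dbh* (4.89 and 7.37 CPM), while replicate 1 is highest for *Tbx20* (3.19 CPM).

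*Tbx20* (ENSMUSG00000031965, chromosome 9, 24718138 to 24774303, minus strand), a transcription factor of cranial motor neurons that is also needed in the heart, had 10, 7, 24 and 22 reads at 0 ppm. The exposed brains had 91, 55, 22 and 38 reads. In CPM the values were 0.341, 0.260, 0.784 and 0.852 in the controls and 3.19, 1.93, 0.785 and 1.68 in the exposed brains. Replicates 1, 2 and 4 at 50 ppm were above all controls, and replicate 3 lay between the highest controls, 0.784 and 0.852 CPM. The means were 0.559 ± 0.302 CPM (SD, n = 4) and 1.90 ± 0.994 CPM (SD, n = 4). The log2 fold change was 1.76 (SE 0.40), the highest of the members, with an unadjusted p of 0.000372 and an adjusted p of 0.319 from edgeR. The adjusted p of *Tbx20* was 0.0507 with DESeq2 and 0.00705 in edgeR without the filter on low counts, and it lay between 0.00705 and 1 over the 15 alternatives.

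The order of the libraries for *Tbx20* shared features with that of the Hox sum, which was lowest in 0 ppm replicates 1 and 2 and highest in 50 ppm replicate 1. With these 2 control libraries left out, the log2 fold change of *Tbx20* was 1.21 (SE 0.40, adjusted p = 0.685 from edgeR). The part of the Hox-expressing tissue in the difference was not tested. The summed CPM of 6 heart muscle genes was 2.70, 2.53, 3.56 and 3.33 at 0 ppm and 2.77, 2.42, 2.11 and 3.00 at 50 ppm, led by *Myh6* at 1.38 CPM, with *Nkx2-5* listed at 0 in all libraries. None of the 5 tested heart genes had a positive log2 fold change. Reads were few, with an average of 1.62 per library for *Myl7*. The part of heart muscle in the values of *Tbx20* was not tested.

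The promoter window of *Tbx20* held 1 match of ATTA and 1 of TGACG, a motif present in 20.8% of all windows, and 0 of CANNTG, which 72.3% held. The sites are shown on the minus strand, with the motif in capitals, beside those of *Dbh* because these were the members with matches of both motifs.
*Tbx20*, chr9:24774295-24774320: cagcaaATTAaggcgcgaggcagcag
*Tbx20*, chr9:24774350-24774375: aagcagTGACGtgagaccacgctgac
The stretch with ATTA starts 17 bases before the RefSeq start and runs into the first exon, and the stretch with TGACG starts 72 bases before it, upstream of every annotated exon.

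All 5 members passed the filter on low counts. With edgeR's quasi-likelihood test, 0 of 5 had an adjusted p under 0.05, while 4 of 23113 genes tested, or 0.0173%, were called: *Hoxb8*, *Hoxb7*, *Hoxb6* and *Bcas1*, all higher at 50 ppm. DESeq2 and limma-voom also called 0 of the 5. At an unadjusted p under 0.05 edgeR gave 4 of the 5 members, all but *Pnmt*, where 3.75% of all genes had such a p and 2.31% had it with a higher level at 50 ppm. The count was 3 with DESeq2 and 3 with limma-voom, both without *Slc6a2*. It was 2 with edgeR's robust fit, without *Slc6a2* and *Dbh*, and 2 in edgeR with 50 ppm replicate 4 left out, without *Slc6a2* and *Phox2a*. With both control libraries with Hox sums near 0 left out, the count in edgeR was 3, without *Phox2a* and *Pnmt*. In 0 of 5 members did all exposed brains lie above all control brains, as they did for 1.19% of all genes. The median log2 fold change of the members was 1.41, against a median of 0.00 over all genes tested. Because the members were chosen with earlier results of these data known, these comparisons with all genes are a description and not a test.

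Levels of different genes were compared per kilobase of merged exons. At 0 ppm the order was *Slc6a2* with 0.779 ± 0.413 CPM per kb (SD, n = 4), *Dbh* with 0.565 ± 0.257, *Pnmt* with 0.402 ± 0.131, *Phox2a* with 0.121 ± 0.0884 and *Tbx20* with 0.0466 ± 0.0251. The order was the same at 50 ppm, where *Slc6a2* had 2.16 ± 1.86 CPM per kb (SD, n = 4), *Dbh* 1.49 ± 1.01, *Pnmt* 0.416 ± 0.165, *Phox2a* 0.333 ± 0.171 and *Tbx20* 0.158 ± 0.0829. At each dose the ranges of neighbouring genes in this order overlapped between brains. Within the same brain, *Dbh* lay above *Pnmt* in all 4 brains at each dose, and in the 4 controls *Slc6a2* also lay above *Dbh* and *Pnmt* above *Phox2a*. At 50 ppm the last 2 held in 2 of 4 brains each, and *Phox2a* lay above *Tbx20* in 3 of 4 brains at each dose. The ratio of *Slc6a2* to *Dbh*, both in CPM per kb, was 1.13, 1.81, 1.01 and 1.5 at 0 ppm and 0.990, 0.795, 1.74 and 1.56 at 50 ppm. It varied less between brains than *Slc6a2* itself, which ranged from 1.71 to 26.8 CPM.

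Pearson's r and Spearman's rho of log2 CPM were computed over the 8 libraries for all 10 pairs of members, with exact two-sided permutation tests and Benjamini-Hochberg adjustment over the pairs. *Dbh* and *Slc6a2* varied together, with r = 0.95 (exact permutation p = 0.000645, adjusted p = 0.00645) and rho = 0.90 (exact permutation p = 0.00456, adjusted p = 0.0456). It was the 1 pair with an adjusted p under 0.05. With the 2 libraries farthest from the median of *Dbh* left out, 0 ppm replicate 1 and 50 ppm replicate 4, r was 0.87 (exact permutation p = 0.0333, adjusted p = 0.0903), and the adjusted p was above 0.05 with these 6 libraries. With each gene centred on its mean at each dose, a step chosen after the values were seen, r of *Dbh* and *Slc6a2* was 0.96 (exact permutation within doses, p = 0.00521, adjusted p = 0.0521). For the other 9 pairs this r lay between -0.46 and 0.77, and each adjusted p was above 0.05.

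*Phox2a* had r = 0.78 with *Dbh* (exact permutation p = 0.0228, adjusted p = 0.0855; rho = 0.64, exact permutation p = 0.0962, adjusted p = 0.192) and r = 0.76 with *Tbx20* (exact permutation p = 0.0256, adjusted p = 0.0855; rho = 0.79, exact permutation p = 0.0279, adjusted p = 0.140). Without 0 ppm replicate 1 and 50 ppm replicate 4, r was 0.16 with *Dbh* and 0.86 with *Tbx20*, so the first r was far lower without those libraries. No relation was detected between *Tbx20* and *Slc6a2*, with r = 0.07 (exact permutation p = 0.859, adjusted p = 0.859) and rho = -0.10 (exact permutation p = 0.840, adjusted p = 0.840), and r = -0.18 without 50 ppm replicates 3 and 4. The transporter was highest in replicates 3 and 4 at 50 ppm and the T-box factor in replicates 1 and 2. Over the other 6 pairs r lay between 0.14 and 0.64, and each adjusted p was above 0.05. The 2 libraries farthest from the median of the first gene differ between pairs. Without 0 ppm replicate 2 and 50 ppm replicate 1, r of *Tbx20* with *Pnmt* was 0.89 (0.14 with all libraries; exact permutation p = 0.0139, adjusted p = 0.0903) and without 50 ppm replicates 3 and 4, r of *Slc6a2* with *Pnmt* was 0.87 (0.50 with all libraries; exact permutation p = 0.0361, adjusted p = 0.0903). Without 0 ppm replicate 1 and 50 ppm replicate 4, r of the other 4 pairs lay between -0.27 and 0.12.

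**Figure D2:**
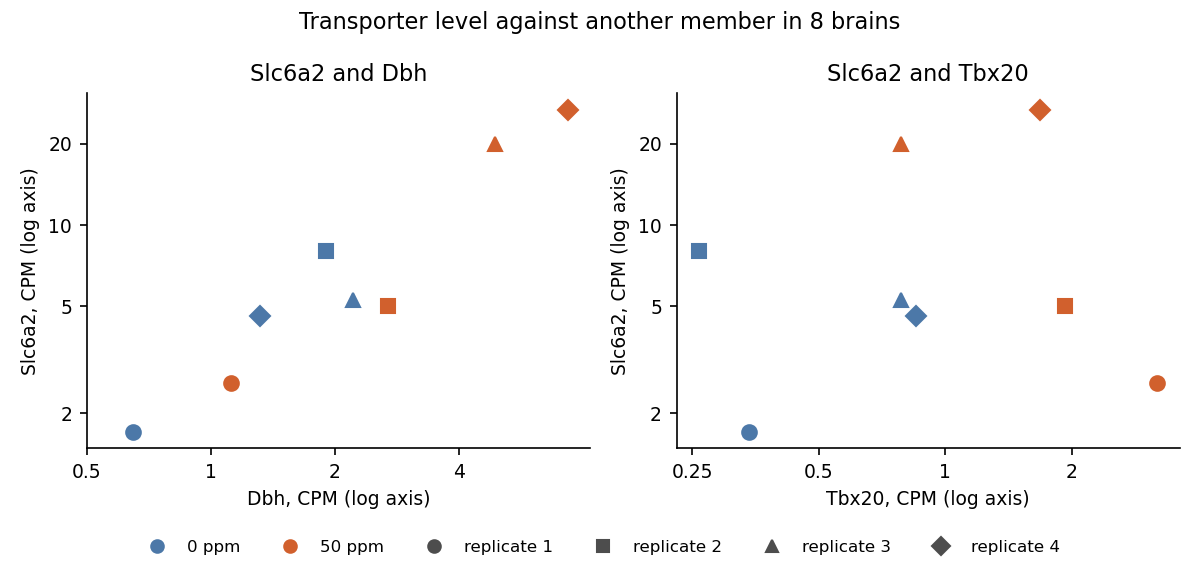
CPM of *Slc6a2* (y axis, log scale) against *Dbh* (left) and *Tbx20* (right, log scale on both x axes) in 8 brains, with dose as colour and replicate as symbol. The r of log2 CPM is 0.95 for *Slc6a2* with *Dbh* and 0.07 with *Tbx20*.

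The genes whose log2 CPM was most like a member over the 8 libraries, among those with a mean of at least 1 CPM, were listed as a description. For *Dbh* they included *Itpr2* and *Reep3*, each with r = 0.97, and for *Slc6a2* they were *4930523C07Rik* (r = 0.97), *Slc38a11* and *Csnk2a2* (both r = 0.96). *Phox2a* was most like *Pla2g7* (r = 0.97), *Calb1*, a calcium-binding protein gene (r = 0.96), and *Ehd4* (r = 0.95). *Tbx20* was most like *Hcrtr1*, an orexin receptor gene (r = 0.98), *Smad9* (r = 0.98) and *S100b* (r = 0.96), and *Pnmt* was most like *Fam19a5*, *Slc25a12* (both r = 0.97) and *Rassf9* (r = 0.95). *Dbh* ranked 6 of 14601 genes for likeness to *Slc6a2*. Every member, *Pnmt* included, had a gene with an r of at least 0.97 in this search over 8 libraries. Shared regulation was not tested.

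**Figure D3:**
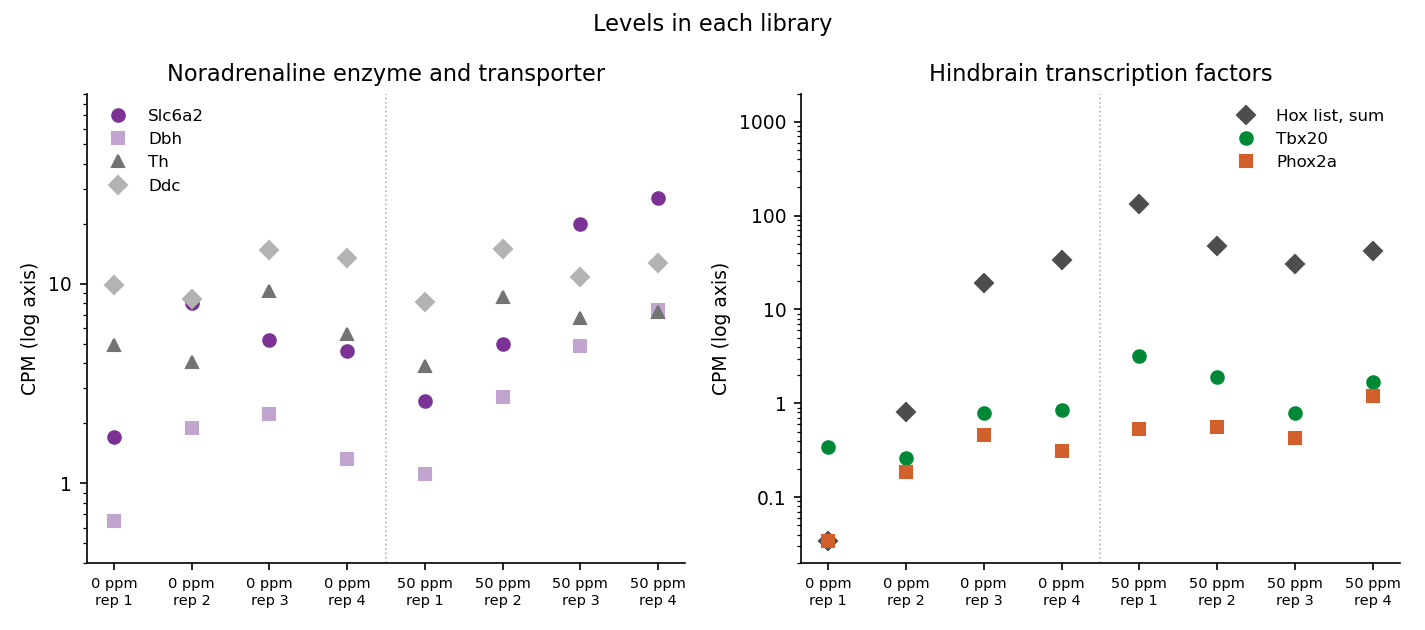
CPM on a log axis in each of the 8 libraries, for the noradrenaline transporter and enzymes (left) and for hindbrain transcription factors with the sum of the 18 Hox genes (right). *Slc6a2* and *Dbh* peak in 50 ppm replicates 3 and 4 while *Th* and *Ddc* do not, and *Phox2a* (0.0341 and 0.186 CPM) and the Hox sum (0.0341 and 0.818 CPM) are lowest in 0 ppm replicates 1 and 2.

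The other genes of catecholamine synthesis and its cofactor had log2 fold changes from -0.10 to 0.14, against 1.38 for *Dbh*. Of the 9 genes of synthesis and its cofactor, 0 were called by edgeR and 1, *Dbh*, had an unadjusted p under 0.05, with a median log2 fold change of 0.03. *Th*, the first enzyme of the chain, had 4.95, 4.06, 9.24 and 5.61 CPM at 0 ppm against 3.89, 8.64, 6.71 and 7.19 CPM at 50 ppm, a log2 fold change of 0.14 (SE 0.24). The doses overlapped over nearly their whole range. *Ddc* had 0.00 (SE 0.18) and *Gch1*, which makes the first step of the tetrahydrobiopterin cofactor, had -0.10 (SE 0.22). *Th* and *Ddc* also serve dopaminergic neurons, and *Ddc* serves serotonergic ones. In 6 dopaminergic genes the summed CPM was 135, 95.8, 106 and 85.9 at 0 ppm and 93.2, 116, 87.0 and 95.4 at 50 ppm, with a median log2 fold change of 0.02. Of these 6 genes 1 had an unadjusted p under 0.05, *Lmx1a*, which was lower at 50 ppm (log2 fold change -0.51, SE 0.22). In 3 serotonergic genes it was 18.7, 15.1, 22.1 and 22.3 at 0 ppm and 15.6, 28.1, 15.3 and 25.3 at 50 ppm, with a median of 0.11. *Nr4a2* (62.3 CPM) and *Slc6a4* (13.6 CPM) were the most abundant genes of these lists, and none was at 0.

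The lists of vesicle storage, of uptake and breakdown and of adrenergic receptors had medians near 0. *Slc18a2*, which loads monoamines into vesicles, had a log2 fold change of 0.10 (SE 0.21), and the 6 storage genes, with the granins *Chga* and *Chgb*, had a median of 0.05, with *Slc18a1*, the vesicle transporter of endocrine cells, lowest at -0.51 (SE 0.37). The 5 genes of uptake and breakdown had a median of -0.04, with *Slc6a2* as the 1 gene at an unadjusted p under 0.05. *Maoa* and *Maob*, enzymes that degrade monoamines, had 0.11 (SE 0.09) and -0.25 (SE 0.19). The 8 adrenergic receptor genes, through which noradrenaline acts on its target cells, ranged from -0.07 for *Adrb1* to 0.22 for *Adra1b*, with a median of 0.04. Of these 3 lists edgeR called 0 genes, and 0 storage and 0 receptor genes had an unadjusted p under 0.05. The 3 peptides of noradrenergic neurons, *Gal*, *Npy* and *Cartpt*, had -0.22, 0.22 and 0.28.

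Among 7 noradrenergic transcription factor genes, 6 were tested, 0 were called and 1, *Phox2a*, had an unadjusted p under 0.05, with a median log2 fold change of 0.07. *Gata3* had -0.02 (SE 0.22), and *Hand2* was listed at 0 in all libraries. The 7 visceral hindbrain genes had a median of 0.44, with 0 called and 3 at an unadjusted p under 0.05, all higher at 50 ppm. Besides *Tbx20* these were *Nkx6-2* (log2 fold change 0.74, SE 0.31), a homeodomain factor of the ventral hindbrain and spinal cord, and *Ret* (0.44, SE 0.18), a receptor of glial cell line-derived neurotrophic factor. *Ret* had 18.8, 17.6, 37.2 and 28.5 CPM at 0 ppm against 38.8, 37.8, 30.0 and 32.4 CPM at 50 ppm. Replicates 1 and 2 of the controls were again the lowest libraries, and without them the log2 fold change of *Ret* was 0.08 (SE 0.12) and that of *Nkx6-2* was 0.63 (SE 0.33). Which cells held the RNA of *Nkx6-2* and *Ret* was not tested.

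Over the 7 pathway lists together, 44 of 45 genes were tested, 28 had a positive and 16 a negative log2 fold change, and the median was 0.05. Of the 44, edgeR, DESeq2 and limma-voom each called 0. The genes at an unadjusted p under 0.05 numbered 6, all higher at 50 ppm. Without the 5 members the 39 tested genes had a median of 0.03 and 2 such genes. Over all genes tested, for comparison with each list above, 3.75% had such a p. The share with a higher level at 50 ppm was 2.31%. In all 23113 genes tested, 11318 log2 fold changes were positive and 11795 negative.

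**Figure D4:**
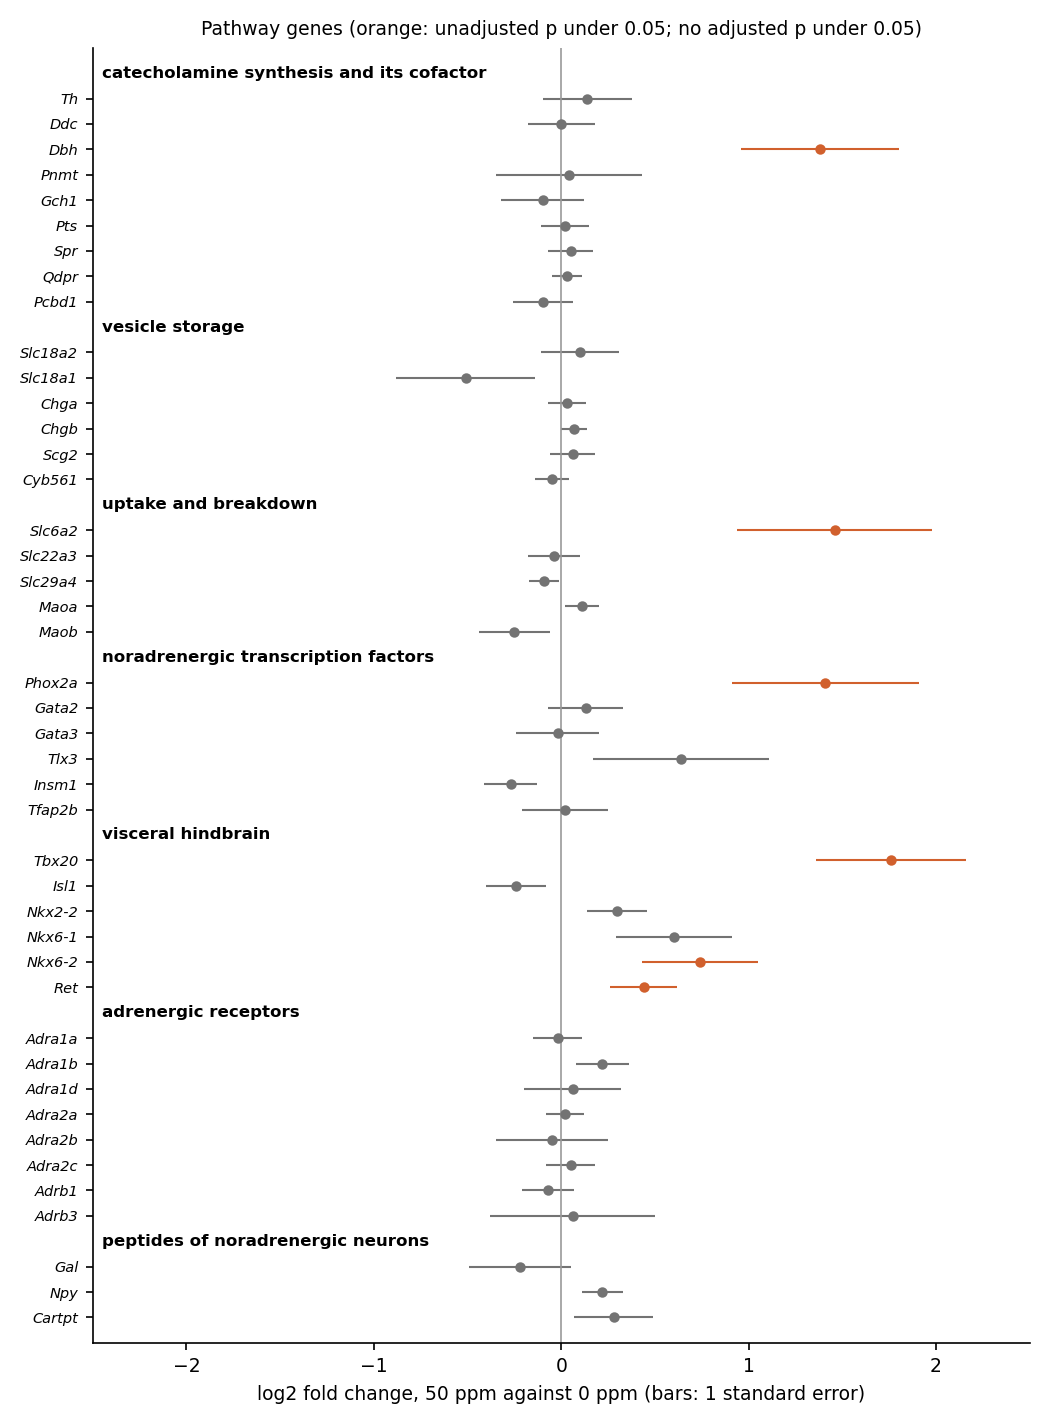
Log2 fold change of 50 ppm against 0 ppm for 43 of the 44 tested pathway genes, grouped by role, with bars of 1 standard error and orange for an unadjusted p under 0.05. *Nkx2-9*, with fewer than 1 read per library on average, is left out, and the 6 orange genes, led by *Tbx20* at 1.76, lie to the right of 0.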

How the data were processed

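The authors trimmed the initial bases of single-end reads from a strand-specific poly(A) library, aligned them with STAR to GRCm38 and deposited raw read counts per gene from htseq-count; the versions of these programs and the strand setting are not given in the sources used here, so reads of overlapping genes on opposite strands cannot be told apart. Counts for the alignment to the C genome were not used here, because no table at hand pairs its identifiers with the 5 members. Gene names were found for 49326 of 49585 identifiers, and coordinates and exon lengths came from GENCODE M21 (GRCm38). Columns without a sample numbered 0. Pairs of brains within a dose differed by more than the sampling noise (chi-square per degree of freedom 9.28 to 22.7 over 12 pairs).

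Genes at 0 in over 2/3 of the libraries were dropped, and 23113 were tested. Libraries were normalized with TMM (factors 0.986 to 1.02) in edgeR 4.0.16 (R 4.3.3), and 50 ppm was tested against 0 ppm with glmQLFit and glmQLFTest, treatment being the only term, with Benjamini-Hochberg adjustment over all genes and a threshold of 0.05. The standard error is the absolute log2 fold change divided by the square root of F. Log2 CPM used a prior count of 2. The code was tested on simulated data. Alternatives were DESeq2 1.42.0, its size factors in edgeR, no filter, a minimum of 10 counts in 4 or more libraries, limma-voom with sample weights (limma 3.58.1), the robust fit of edgeR, a prior count of 0.5, each library left out and, added after the values were seen, both control libraries with Hox sums near 0 left out, and for correlations each gene centred on its dose mean.

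Named genes are the 5 members, the genes of 7 pathway lists (catecholamine synthesis and its cofactor, vesicle storage, uptake and breakdown, noradrenergic transcription factors, visceral hindbrain, adrenergic receptors, peptides), the 3 genes most like each member, genes called over the whole table, and markers of dopaminergic, serotonergic, noradrenergic, cholinergic motor and other neurons, sympathetic and chromaffin cells, Schwann cells, heart muscle, forebrain, and hindbrain and spinal cord. Members and lists were chosen with earlier results of these data known. Some genes of these kinds are not reported here, and the counts, medians and sums of the lists are without them. The figures used Python 3.11.15 and matplotlib 3.10.9.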

Additional observations from a re-analysis of the deposited data

Results flagged for a closer look

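In 6 of 108 groups of 4 brains, for the pathway genes and the marker sums, 1 brain lay far from the other 3 relative to their range, and chance alone gives about 1 in 20 groups. *Pnmt* was low in 0 ppm replicate 1, with 0.239 CPM against 0.521 to 0.555 CPM in the other controls. The same library was high for *Spr*, an enzyme of cofactor synthesis (23.0 CPM). *Pcbd1*, which recycles the cofactor, stood out in 50 ppm replicate 2 with 9.87 CPM. *Tfap2b* was high in 0 ppm replicate 4 with 102 CPM against 52.1 to 54.8 CPM in the other controls. *Nkx2-9* had 0.0882 CPM in 50 ppm replicate 4 and 0 in the other exposed brains, a level within what a count of 0 allows. The summed CPM of the 18 Hox genes was 134 in 50 ppm replicate 1, against 30.5 to 47.8 in the other exposed brains.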

How the results depend on the processing

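Over 15 alternatives for each member, *Phox2a*, *Dbh*, *Slc6a2* and *Tbx20* had a positive log2 fold change in all 15. Without the filter on low counts, 2 members were called, *Dbh* (1.38, adjusted p = 0.043 from edgeR) and *Tbx20* (1.76, adjusted p = 0.00705), and these were the 2 pathway genes called; this fit tested 27077 genes and gave both a smaller SE, 0.32 and 0.34, and the cause was not tested. The number of genes called over the whole table was 18 with DESeq2, 52 without the filter, 2 with a minimum of 10 counts in 4 or more libraries, 1 with limma-voom, and 7 without both control libraries with Hox sums near 0, against 4. With 1 library left out it lay between 2 and 20, at 20 without 0 ppm replicate 3. Members at an unadjusted p under 0.05 numbered 2 with edgeR's robust fit and 2 to 4 with 1 library left out, against 4. They numbered 3 without both control libraries with Hox sums near 0. The log2 fold change of *Pnmt* turned to -0.07 with limma-voom, to -0.21 without both of those control libraries, to -0.18 without 0 ppm replicate 1, to -0.17 without 50 ppm replicate 2 and to -0.09 without 50 ppm replicate 4.

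The ranges of the log2 fold change with each library left out in turn were 1.02 to 1.92 for *Phox2a*, 0.93 to 1.70 for *Dbh*, 0.91 to 1.82 for *Slc6a2*, 1.38 to 2.03 for *Tbx20*, and -0.18 to 0.24 for *Pnmt*. The number of pairs of members with an adjusted correlation p under 0.05 was 1, 0 with the 2 farthest libraries left out, and 0 with each gene centred on its dose mean. No paired analysis was possible because the labels give no replicate number that ties a control brain to an exposed one. *Phox2a* and *Pnmt*, with 1 to 27 reads per library, are limited by counting error.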

Other observations

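Markers of other cells that a newborn brain sample can hold were described beside the members. *Prph*, which encodes peripherin, an intermediate filament of motor and peripheral neurons, had 4.98, 2.12, 10.1 and 7.28 CPM at 0 ppm against 16.5, 14.6, 10.6 and 13.1 CPM at 50 ppm. All 4 exposed brains lay above all control brains, as they did for 1.19% of all genes. *Prph* was lowest in 0 ppm replicates 1 and 2 and highest in 50 ppm replicate 1, as was the Hox sum. The log2 fold change of *Prph* was 1.16 (SE 0.28, adjusted p = 0.421 from edgeR). The part of the Hox-expressing tissue in this difference was not tested.

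The summed CPM of 5 Schwann cell genes, of which *Pmp2* was listed at 0 and *Prx* was the most abundant (5.58 CPM), was 7.61, 7.78, 8.26 and 8.29 at 0 ppm and 9.30, 8.04, 8.24 and 7.59 at 50 ppm, and the doses overlapped. The sum of 5 cholinergic motor neuron genes was 22.5, 23.2, 37.0 and 34.3 at 0 ppm and 27.8, 34.1, 25.9 and 30.8 at 50 ppm, led by *Isl1* (18.9 CPM), with *Slc18a3* listed at 0. *Slc5a7*, the choline transporter of these neurons, had a log2 fold change of 0.46 (SE 0.16, adjusted p = 0.999 from edgeR). *Chat* had a log2 fold change of 0.57 (SE 0.30, adjusted p = 0.999 from edgeR). *Isl1* had one of -0.24 (SE 0.16), and of the 3 tested genes of the list 2 had a positive and 1 a negative log2 fold change. Among the forebrain genes *Six3* had a log2 fold change of -0.41 (SE 0.16) and *Emx2* one of -0.29 (SE 0.13). The part of any of these cells in the values of the members was not tested.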
